A study of Mus musculus with 18 samples.

Results

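The muscle microRNA genes Mir206 and Mir133b were examined by chromatin accessibility in a window of 110 kb on mouse chromosome 1, from 20610000 to 20720000 in the mm9 build. ATAC-seq, in which a transposase cuts open DNA and tags it for sequencing, had been run on skeletal muscle cells with and without a knockout of MyoD, a transcription factor that drives the muscle programme. Every peak whose summit, the base with the highest read coverage, lay in the window was taken. This gave 50 of the 400115 peaks in 4 deposited lists, or 14 of 141979 regions after overlapping peaks were merged. The 12 ATAC-seq samples gave 1 list per group of 3, named here as the labels give them: MyoD-null myocytes and wild-type myocytes, both after 24 h of myogenic differentiation, then MyoD-null myoblasts and wild-type myoblasts. Myoblasts are the dividing precursors and myocytes are cells that have left the cycle to differentiate. The sources used here give neither the MyoD allele nor the age of the mice. The labelled cell type was not checked against marker genes, because the only gene coordinates supplied were of another build.

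MicroRNAs are cut from hairpin transcripts and pair through their seed, bases 2 to 8, with target messages, which are then repressed. miR-206 is found mainly in skeletal muscle, where it favours differentiation, and its gene is a known target of MyoD and myogenin in mouse muscle cells. miR-133b belongs to the miR-133 family, which acts on growth and differentiation of muscle cells. In the RefSeq annotation of GRCm38, Mir206 and then Mir133b lie within the gene of the muscle long noncoding RNA Lincmd1 (linc-MD1), which in mouse myoblasts is known to bind miR-133 and so to relieve its targets. The gene that follows Mir133b is Il17a, which encodes a cytokine.

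The mature products are shown because they are what the locus makes, with the seed in capitals. They are from RefSeq (GRCm38.p6), on the plus strand of chromosome 1, at 20679055 to 20679076 for miR-206-3p, 20679017 to 20679039 for miR-206-5p, 20682834 to 20682855 for miR-133b-3p and 20682797 to 20682818 for miR-133b-5p. Both genes matched the table by symbol.
mmu-miR-206-3p: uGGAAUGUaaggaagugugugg
mmu-miR-206-5p: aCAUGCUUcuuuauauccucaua
mmu-miR-133b-3p: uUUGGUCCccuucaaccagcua
mmu-miR-133b-5p: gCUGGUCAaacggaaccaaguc
The 4 seeds differ from each other, so that the genes have no shared seed. Among the 1679 mature names of the table, the miR-206-3p seed recurred in 2 others, miR-6349 and miR-6382, and the other 3 seeds recurred in 0. No other member of the miR-133 family was among the matches. A microRNA absent from the table could not be counted, so these counts do not show that a seed is unique.

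The promoter of Lincmd1 is shown because the annotated gene spans both microRNAs, for which the table has no promoter of their own. It covers 250 bases before the annotated start and 50 from it, at chr1:20669632-20669931 of GRCm38.p6 on the plus strand, and it was not placed among the mm9 peaks. Capitals mark matches to CANNTG, the E-box that MyoD and related factors read, searched on both strands.
Lincmd1 promoter: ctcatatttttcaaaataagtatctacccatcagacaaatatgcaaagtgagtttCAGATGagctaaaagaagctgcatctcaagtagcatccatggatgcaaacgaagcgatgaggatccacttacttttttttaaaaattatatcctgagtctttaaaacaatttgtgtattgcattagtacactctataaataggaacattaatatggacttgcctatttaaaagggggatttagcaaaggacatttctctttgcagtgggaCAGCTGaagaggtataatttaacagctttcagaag
The promoter held 2 E-boxes, CAGATG from base 56 and CAGCTG from base 266, counted from the 5′ end. The second of these lies just after the annotated start. CANNTG occurred in 72.3% of the 32851 promoters of the same length, and the narrower CAGCTG in 16.3%. CAGGTG (20.2% of promoters), TGANTCA, an AP-1 site (7.81%), and GGAATG, a TEAD site (14.7%), had 0 matches in these letters. CAGCTG and CAGGTG are special cases of CANNTG, and a match is a description of letters, not of a bound site.

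Each list was called on merged samples, so the values carry no replicate error and no test between groups could be made. The fold enrichment given by the authors is the number of reads at the summit over the local background, with 1 added to each. Both terms were recovered from the deposited values, and the reads came out whole at every peak. The genome-wide background, a single value per list below which the caller lets no local background fall, was 6.34 in the myocytes labelled MyoD-null, 5.29 in those labelled wild type, 8.54 in MyoD-null myoblasts and 8.18 in wild-type myoblasts. On that background a summit needed at least 17, 15, 21 and 20 reads, in the same order, to be listed. Intervals below are 95% intervals of counting error alone, and PCR copies are not independent molecules. Those of fold ratios cover the summit reads only and leave out the error of the local background. In such bulk cultures, more cells with an open site and a more open site per cell cannot be told apart.

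The 2 myocyte lists carry opposite genotypes in their peak names. The list labelled MyoD-null has peaks named WT-DM, and the list labelled wild type has peaks named MKO-DM, where MKO is the tag of MyoD-null samples in the titles. Both myoblast lists have names that match their labels. The myocytes are called by their labels, and each myocyte comparison is also given under the peak names. Peak names of both myocyte lists also start with a tag that is missing from the myoblast lists, so stage and any difference in handling cannot be told apart.

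Most open regions of the locus were listed in all groups, in myoblasts as in myocytes and with either genotype. The window held 12 peaks in the myocytes labelled MyoD-null, 13 in those labelled wild type, 12 in MyoD-null myoblasts and 13 in wild-type myoblasts. Windows of 110 kb with at least as many peaks made up 7.76%, 10.4%, 10.2% and 6.71% of the windows tested in the same order, so the locus was richer in peaks than most. Of the 14 regions, 11 were present in all 4 lists, against 45.9% of all merged regions. Region 1 was present in 3 lists, and regions 6 and 14 in a single list each. Regions are numbered by position below, and distances are from position 20669000, the approximate mm9 position of Mir206.

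**Figure D1:**
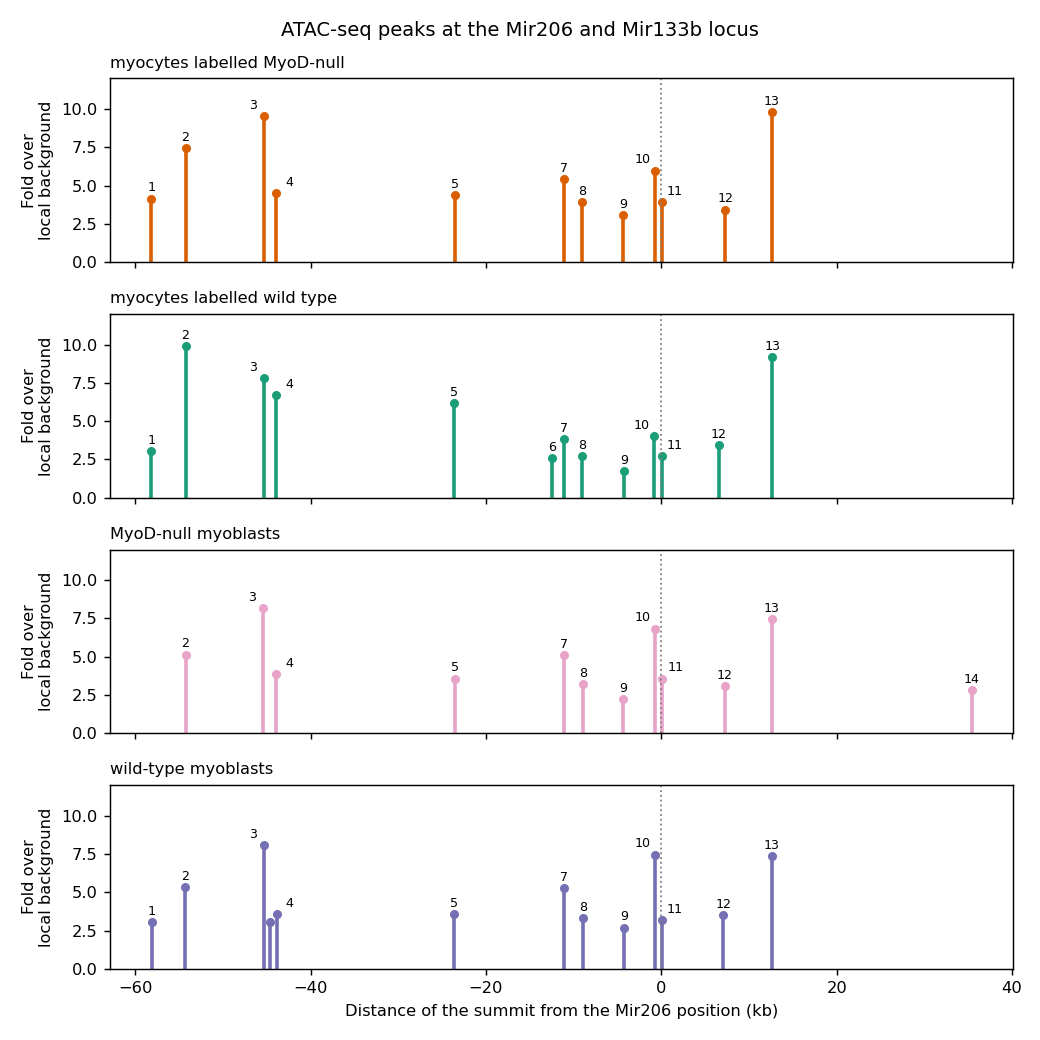
Fold enrichment over the local background (y axis) of each peak against the distance of its summit from the Mir206 position in kb (x axis), 1 panel per list, with region numbers above the peaks and a dotted line at the Mir206 position. Regions 2, 3 and 13 reach 9.88, 9.53 and 9.80 in at least 1 list, whereas regions 7 to 11 reach at most 4.03 in the myocytes labelled wild type. The peak without a number in wild-type myoblasts is a second peak of region 3.

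The region nearest to Mir206, region 11 (chr1:20668903-20669366), covered that position in every list and was of moderate height. Its fold was 3.93 in the myocytes labelled MyoD-null, 2.71 in those labelled wild type, 3.56 in MyoD-null myoblasts and 3.16 in wild-type myoblasts. The summits were covered by 69, 79, 51 and 43 reads in the same order. The myocytes labelled wild type had the most reads and the lowest fold of the 4 lists. The local background there was 16.8 reads in the myocytes labelled MyoD-null and 28.5 in those labelled wild type. The region was listed in myoblasts without MyoD as in those with it, at local backgrounds of 13.6 and 12.9 reads in MyoD-null and wild-type myoblasts.

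The strongest peak near Mir206 was region 10 (chr1:20668012-20668449), whose summit lay 0.748 kb before the Mir206 position in the myocytes labelled MyoD-null and 0.742 to 0.778 kb before it in the other lists. Its reads were 111 in the myocytes labelled MyoD-null, 125 in those labelled wild type, 102 in MyoD-null myoblasts and 106 in wild-type myoblasts. The counting intervals of these raw reads overlapped, but the lists differ in genome-wide background. Over that background the reads were 17.5, 23.6, 11.9 and 13.0 in the same order. The folds were 5.98, 4.03, 6.84 and 7.46 in the same order. Region 10 was the only region with a higher fold in both myoblast lists than in both myocyte lists. In the myocytes labelled wild type 65.6% of all peaks had a higher fold than region 10, against 4.85% in wild-type myoblasts. By reads, 7.71% of that myocyte list was higher.

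Regions 7, 8 and 9 lay 11.1 to 4.27 kb before Mir206, in a stretch with a high local background. Region 7 (chr1:20657592-20658207) had summits of 110 reads in the myocytes labelled MyoD-null, 141 in those labelled wild type, 81 in MyoD-null myoblasts and 82 in wild-type myoblasts. Region 8 (chr1:20659502-20660313) had 101, 121, 63 and 63 reads in the same order. Region 9 (chr1:20664463-20664840) had 85, 73, 46 and 51. At all 3, both myocyte lists had more reads than both myoblast lists, at lower genome-wide backgrounds. Region 9 had the lowest fold of the locus in every list, at 3.08, 1.73, 2.23 and 2.68 in the same order.

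Region 6 (chr1:20656405-20656877), 12.4 kb before Mir206, had a peak only in the myocytes labelled wild type. It had 83 reads over a local background of 31.8, and a fold of 2.56, which 96.7% of that list exceeded. In the other lists the nearest peak, region 7, had a local background of 19.4 in the myocytes labelled MyoD-null, 15.1 in MyoD-null and 14.7 in wild-type myoblasts. At those backgrounds a summit needed 37, 31 and 30 reads to be listed, so fewer reads there were not detectable as a peak.

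Farther upstream, at regions 2, 4 and 5, the myocytes labelled wild type exceeded the other lists in reads by the largest factors of the regions listed in all 4. Region 2 (chr1:20614457-20615099), 54.3 kb before Mir206, had 65 reads in the myocytes labelled MyoD-null, 142 in those labelled wild type, and 48 in both MyoD-null and wild-type myoblasts. Its folds were 7.45, 9.88, 5.13 and 5.34 in the same order, the 9.88 being the highest of the locus. Region 4 (chr1:20624828-20625370), 43.9 kb before Mir206, had 49 and 120 reads in the myocytes labelled MyoD-null and wild type, against 36 and 32 in MyoD-null and wild-type myoblasts. At both regions the myocytes labelled wild type lay above the counting intervals of the other lists.

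Region 5 (chr1:20645070-20646661), 23.6 kb before Mir206, showed the sharpest split in reads. It had 31 reads in the myocytes labelled MyoD-null, 128 in those labelled wild type, 33 in MyoD-null and 32 in wild-type myoblasts. The peak was also 1592 bp wide in the myocytes labelled wild type, against 469 bp in the other myocytes, 323 bp in MyoD-null and 253 bp in wild-type myoblasts. The counting intervals of the other 3 lists overlapped.

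Region 3 (chr1:20623268-20624521), about 45 kb before Mir206, was strong in every group. Its highest peak had 104 reads and a fold of 9.53 in the myocytes labelled MyoD-null, and 143 reads and a fold of 7.83 in those labelled wild type. MyoD-null myoblasts had 77 reads and a fold of 8.17, and wild-type myoblasts 73 reads and a fold of 8.06. Wild-type myoblasts had a second, weaker peak in this region with 27 reads, which overlapped the broad myocyte peaks but no peak of MyoD-null myoblasts. Region 1 (chr1:20610636-20611036), at the edge of the window, had 50 reads in the myocytes labelled MyoD-null, 56 in those labelled wild type and 32 in wild-type myoblasts, with folds of 4.15, 3.05 and 3.07. It was not listed in MyoD-null myoblasts, where 21 reads were needed.

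Downstream of Mir206, region 13 (chr1:20681036-20682031), 12.6 kb away, was the strongest. It had 107 reads in the myocytes labelled MyoD-null, 134 in those labelled wild type, and 95 in both MyoD-null and wild-type myoblasts. The folds were 9.80, 9.20, 7.45 and 7.34 in the same order. Its summits lay within 40 bp of each other, so that all groups shared the same site. In region 12 (chr1:20675210-20676458) the summits were spread over 723 bp, and its reads were 32, 58, 30 and 35 in the same order of lists. Region 14 (chr1:20704181-20704516), 35.4 kb away, was listed in MyoD-null myoblasts alone with 26 reads, just above the 21 that were needed. Just outside the window, the next peaks lay 387 to 449 bp before its start, with folds of 5.85 to 8.64, and 18794 to 30148 bp after its end, with folds of 3.14 to 4.63.

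**Figure D2:**
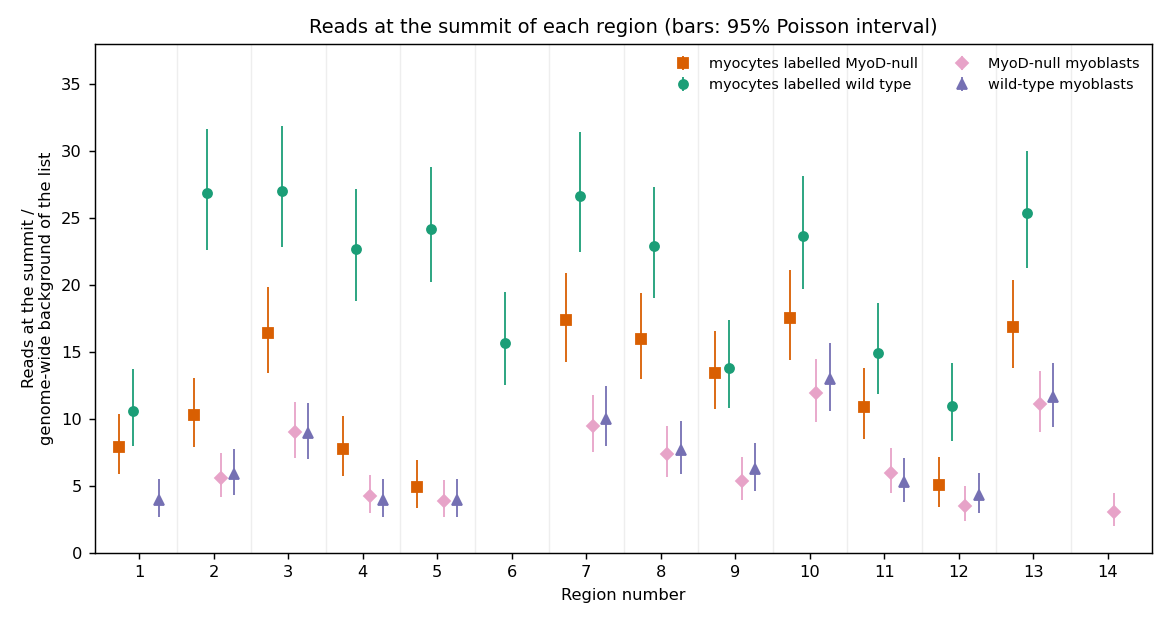
Reads at the summit divided by the genome-wide background of the list (y axis) for each region by number (x axis), with 95% Poisson intervals as bars and 1 marker per list; a region without a marker was not listed. The myocytes labelled wild type reach 27.1 at region 3 and 24.2 at region 5, where the other 3 lists lie between 3.86 and 4.89, and the bars of the myoblast lists overlap at every region listed in both.

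The local background, which the peak caller takes from the reads around a peak, was above the genome-wide one at regions 7 to 13 in every list. It was higher there in both myocyte lists than in both myoblast lists, and lower at regions 12 and 13 than at regions 7 to 11. The reads of a peak and of its neighbours were not separated from the local background. At region 8 it was 3.97 times the genome-wide background in the myocytes labelled MyoD-null, 8.30 times in those labelled wild type, 2.23 times in MyoD-null and 2.25 times in wild-type myoblasts. Higher values occurred at 4.85%, 0.403%, 13.4% and 12.5% of all peaks of the lists, in the same order. Among all peaks of its list, region 8 was closest to the top in the myocytes labelled wild type.

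Along regions 7 to 11, the local background over the genome-wide one ranged from 2.65 to 4.25 in the myocytes labelled MyoD-null, from 5.39 to 8.30 in those labelled wild type, from 1.59 to 2.35 in MyoD-null and from 1.58 to 2.25 in wild-type myoblasts. In the whole window, a local background of at least 2 times the genome-wide one was found at 5 of 12 peaks in the myocytes labelled MyoD-null, where 29.2% of the list reached it. It was found at 13 of 13 in the myocytes labelled wild type (32.8% of that list), at 2 of 12 in MyoD-null myoblasts (18.8%) and at 2 of 13 in wild-type myoblasts (18.2%). Peaks that lie near each other share surrounding sequence, so these counts are not independent.

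**Figure D3:**
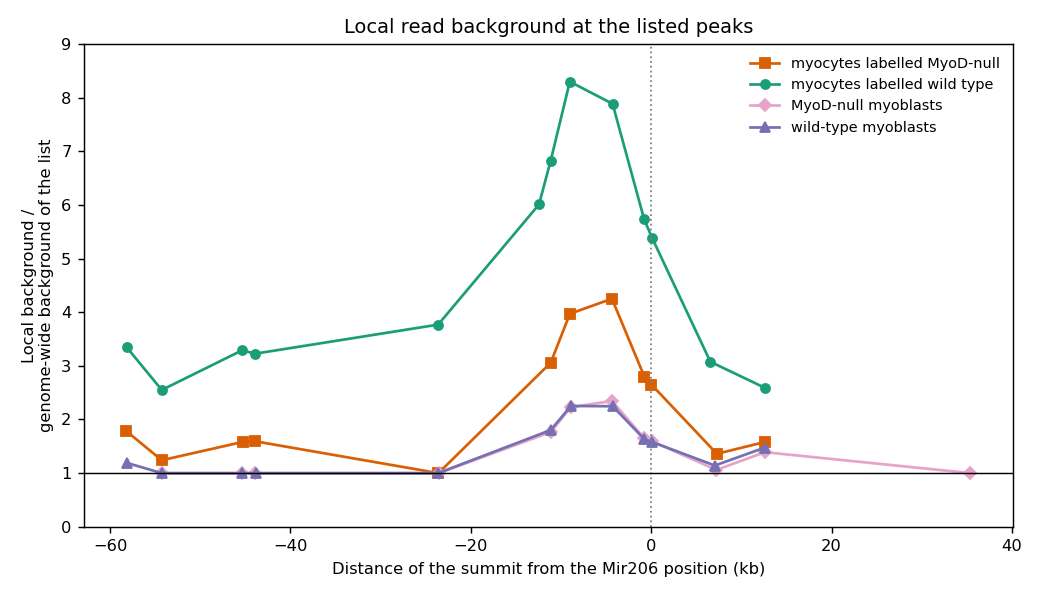
Local background divided by the genome-wide background of the list (y axis) at the highest peak of each region, against the distance of its summit from the Mir206 position in kb (x axis), 1 line per list; the black line at 1 is the genome-wide background, the lowest value a peak can have. All lists are highest at region 8 or 9, at 4.25 and 8.30 in the myocytes labelled MyoD-null and wild type, and at 2.35 and 2.25 in MyoD-null and wild-type myoblasts.

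The comparisons below set lists against each other at regions listed in both. Each ratio was divided by the median of the same ratio over all shared regions, because folds and reads as a whole differed between lists, and was called higher or lower when it passed 1.5 times. In the 4 comparisons there were 46 such ratios at the locus for each measure, and the intervals were not adjusted for their number.

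For differentiation with the wild-type label, the fold was lower in myocytes at regions 7 to 10 and did not pass 1.5 times at the other 8 shared regions. Of 13 myocyte peaks, 1 (region 6) had no overlap in wild-type myoblasts, against 30.0% of the whole myocyte list, and 0 of 13 myoblast peaks had none in myocytes, against 18.0%. With a reciprocal overlap of 50% these counts were 6 of 13 myocyte peaks, against 38.8% of the list, and 6 of 13 myoblast peaks, against 30.1%, so the low counts depend on the overlap rule. By fold, 4 of 12 shared regions were lower in myocytes, against 4.74% of all 77469 shared regions, and 0 were higher, against 7.76%. The lowest was region 10, at 0.424 times the median ratio (interval 0.324 to 0.554), and the highest was region 4, at 1.46 (0.984 to 2.23). Region 2, at 1.45 (1.04 to 2.06), had an interval above 1. Region 11, over Mir206, fell just short of the cut for lower regions, at 0.675 (0.460 to 1.002). Among peaks with a fold of at least 5, only regions 2, 3 and 13 were shared, so the 4 lower regions left the comparison.

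By reads over the genome-wide background, all 12 shared regions, regions 7 to 10 among them, were above the median ratio. Past 1.5 times, 9 of 12 regions were higher in myocytes, against 10.7% of all shared regions, and 0 were lower, against 10.7%. Region 5 was 3.83 times the median ratio (2.59 to 5.84), region 4 was 3.59 (2.42 to 5.49) and region 2 was 2.84 (2.03 to 4.02). Region 10 was at 1.13 (0.865 to 1.48), and its interval included 1. The local background was higher in myocytes at 12 of 12 regions, against 10.8% of all, by 1.52 to 3.29 times the median ratio, and lower at 0, against 1.51%. At regions 2 to 5 these are lower bounds, since the myoblast background there was at the genome-wide floor. At regions 7 to 10 fold and reads differed in direction, though the read intervals of regions 9 and 10 included 1. The local background was higher at regions 7 to 10 by a larger factor than the reads.

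For differentiation with the MyoD-null label, folds stayed within 1.5 times while reads or the local background passed it at some regions. Of 12 myocyte peaks, 1 (region 1) had no overlap in MyoD-null myoblasts, against 16.2% of the list, and of 12 myoblast peaks 1 (region 14) had none in myocytes, against 24.7%. By fold, 0 of 11 shared regions were higher, against 3.61% of all, and 0 were lower, against 2.82%. The ratios ran from 0.778 at region 10 (0.589 to 1.03) to 1.29 at region 2 (0.875 to 1.91). By reads, regions 8 and 9 were higher, at 1.69 (1.22 to 2.35) and 1.94 (1.34 to 2.85), which is 2 of 11 against 4.83% of all, and 0 were lower, against 8.83%. The local background was higher at 7 of 11 regions, against 3.05% of all, with up to 1.74 times the median ratio at region 9, and lower at 0, against 0.733%. At regions 2 to 5 the myoblasts were at the genome-wide floor.

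Under the peak names the myocyte lists change places. Differentiation of wild-type cells is then read from the list labelled MyoD-null. Of its 12 peaks 0 had no overlap in wild-type myoblasts, against 15.5% of the list, and of 13 myoblast peaks 0 had none in those myocytes, against 22.3%. By fold, 0 of 12 shared regions were higher and 0 lower, against 3.37% and 2.50% of all. Region 10 was lowest, at 0.705 times the median ratio (0.536 to 0.929), the only interval that left out 1. By reads, 5 were higher and 0 lower, against 4.70% and 8.16%, and the local background was higher at 7 and lower at 0, against 1.78% and 0.214%.

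Differentiation without MyoD is then read from the list labelled wild type. Of its 13 peaks 2 (regions 1 and 6) had no overlap in MyoD-null myoblasts, against 30.0% of the list, and of 12 myoblast peaks 1 (region 14) had none in those myocytes, against 19.8%. By fold, 1 of 11 shared regions was higher and 4 were lower, against 8.04% and 4.97% of all. By reads, 9 were higher and 0 lower, against 10.4% and 11.4%, and the local background was higher at 11 and lower at 0, against 11.7% and 2.83%. In both readings the local background was higher in myocytes than in myoblasts at most regions. Which genotype had the larger difference depended on the reading, and the difference between genotypes was not tested.

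In MyoD-null against wild-type myoblasts, 0 shared regions of the locus passed 1.5 times in any measure. Of 12 MyoD-null peaks, 1 (region 14) had no overlap in wild-type myoblasts, against 14.8% of the list. Of 13 wild-type peaks, 2 (region 1 and the second peak of region 3) had none in MyoD-null myoblasts, against 12.8%. By fold, 0 of 11 shared regions were higher, against 0.345% of all, and 0 were lower, against 0.305%. By reads it was also 0 of 11 in each direction, against 0.503% and 0.474%, and for the local background 0 of 11, against 0.0145% and 0.00965%.

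The fold ratios of MyoD-null over wild-type myoblasts ran from 0.823 at region 9 (0.540 to 1.25) to 1.12 at region 11, over Mir206 (0.729 to 1.72). At region 10 the ratio was 0.906 (0.684 to 1.20) and at region 8 it was 0.958 (0.665 to 1.38). All 11 intervals included 1, so differences within these bounds were not detectable at this depth. The local background over the genome-wide one was within 0.929 to 1.04 times between the genotypes.

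**Figure D4:**
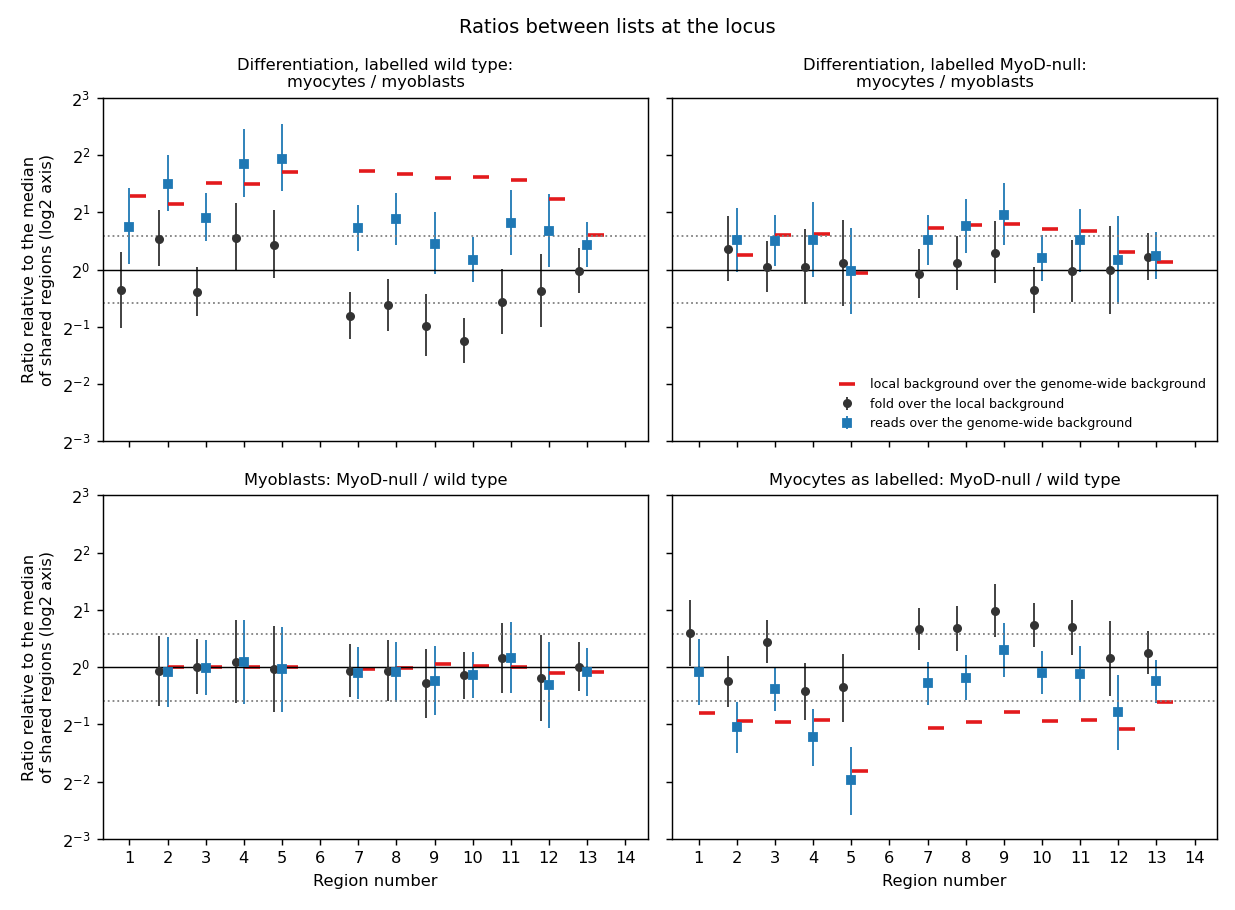
Ratio between 2 lists at each region, relative to the median ratio over all shared regions (y axis, log2 scale), by region number (x axis), 1 panel per comparison; black circles are the fold, blue squares the reads over the genome-wide background, both with 95% counting intervals, and red dashes the local background. Dotted lines mark 1.5 times; black circles fall under 1 and blue squares above 1 at regions 7 to 10 for differentiation with the wild-type label, and all markers lie between 0.808 and 1.12 for MyoD-null against wild-type myoblasts.

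Between the 2 myocyte lists, the list labelled MyoD-null had higher folds at region 1 and regions 7 to 11, a lower local background at every shared region, and fewer reads at regions 2, 4, 5 and 12. Of its 12 peaks 0 had no overlap in the other myocytes, against 13.1% of the list, and of the 13 peaks of the myocytes labelled wild type 1 (region 6) had none, against 32.0%. By fold, 6 of 12 regions were higher in the list labelled MyoD-null, against 5.21% of all 75157 shared regions, and 0 were lower, against 7.65%. Region 9 was highest, at 1.98 times the median ratio (1.43 to 2.75), and region 4 was lowest, at 0.751 (0.528 to 1.06). The 6 regions are not among the 3 shared ones (2, 3 and 13) with a fold of at least 5 in both lists.

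By reads, 0 of 12 were higher in the list labelled MyoD-null, against 9.30% of all, and 4 were lower, against 11.1%. Region 5 was lowest at 0.255 times the median ratio (0.167 to 0.381), followed by region 4 at 0.431 (0.302 to 0.605), region 2 at 0.483 (0.354 to 0.652) and region 12 at 0.582 (0.366 to 0.911). Region 9 was the only region above 1, at 1.23 (0.888 to 1.70). At region 3 the reads were at 0.767 (0.590 to 0.994) and the fold at 1.36 (1.05 to 1.76), on opposite sides of 1. At regions 7, 8, 10 and 11 the reads were at 0.823, 0.880, 0.937 and 0.921, with intervals that included 1. The local background was lower at 12 of 12 regions, against 6.80% of all, with ratios of 0.284 to 0.654, and higher at 0, against 0.941%. At region 5 the list labelled MyoD-null was at the genome-wide floor, so that its ratio of 0.284 is an upper bound. Under the peak names all these directions belong to the opposite genotypes. The myocytes named MKO-DM would then be those with more reads at regions 2, 4, 5 and 12 and the higher local background.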

How the data were processed

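The authors deposited 1 narrowPeak list per group of 3 ATAC-seq samples, in mm9 coordinates, made with MACS2 and deepTools per the submitters' processing notes. The peak names refer to merged alignments filtered for mapping quality, so replicates were pooled. Per the file names the lists have a cut on the false discovery rate, and the lowest −log10 q in them is 2.02 to 2.04. An aligner and a transposase shift are not given in these sources. The 6 RNA-seq samples were not used here.

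Per the file layout, the deposited fold is a ratio of summit reads to local background, and the deposited −log10 p and −log10 q belong to each peak. The deposited score, and the summit offset in bases, come from the same lists, and only the offset was used. With 1 added to both terms, the fold and the Poisson p gave the reads and, in steps of 0.02, the background. The reads came out whole (within 0.02) and matched the deposited −log10 p (within 0.01) for 100% of peaks on chromosomes 1 to 19, X and Y. No local background lies below the genome-wide one. The 9 mitochondrial peaks were left out. Peaks were shared if they overlapped by 1 bp, and regions were merged over all lists, with the highest peak standing for a region. Ratio intervals are exact binomial ones of the summit reads, with the backgrounds taken as fixed. Steps were tested on 20000 simulated peaks, and all 6 simulated quantities were recovered within 1 percent.

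The window, the measures and the described regions were chosen with earlier results of these data known. By the rule set for them, named regions were the nearest to Mir206, the 3 highest folds, regions of a single list, and the highest and lowest ratio of each comparison. Regions 1, 5, 7, 8 and 12, the local background, the comparison of all measures under the peak names, the shares over all peaks under other overlap rules and a fold of at least 5, and the Lincmd1 promoter were added after values were seen. Alternatives were thresholds on q and fold, lists of equal length, windows of 70 and 210 kb, other overlap rules, reads in place of folds, means in place of highest peaks, and genotypes from peak names. Scripts ran in Python 3.11.15 with scipy 1.17.1, statsmodels 0.14.6, pandas 2.3.3, matplotlib 3.10.9 and numpy 2.4.6.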

Additional observations from a re-analysis of the deposited data

How the results depend on the processing

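Values are counts of peaks or regions, or log2 ratios relative to the median of all shared regions. In order, the peaks without overlap are given for myocytes, then myoblasts, in differentiation with the wild-type label (1 and 0) and MyoD-null label (1 and 1), and for MyoD-null, then wild type, in myoblasts (1 and 2) and myocytes (0 and 1). With folds of at least 5, each list had 5 peaks at the locus. The peaks without overlap were then 2 and 2, 0 and 0, 0 and 0, and 2 and 2. Only regions 2, 3 and 13 were then shared in wild-type differentiation and between the myocytes, so the 4 lower and 6 higher regions were no longer compared. The counts were 0 of 3 lower (1.03% of all) and 0 of 3 higher (1.52% of all), and the median local background of wild-type differentiation was 1.0, against 1.54. With lists of equal length, the fold of region 11 in wild-type differentiation passed 1.5 times, at -0.60, against -0.57. With a −log10 q of at least 5, and with lists of equal length, the peaks without overlap were 1 for myoblasts under the wild-type label, 2 and 0 under the MyoD-null label, 0 for MyoD-null myoblasts and 1 for MyoD-null myocytes. In the window of 70 kb, wild-type myoblasts had 8 peaks, and the counts were 0 and 0 under the MyoD-null label and 0 and 0 in myoblasts. In the window of 210 kb they were 3 for myocytes under the wild-type label, 2 and 2 under the MyoD-null label and 3 for wild-type myocytes. With a reciprocal overlap of 50% they were 6 and 6 under the wild-type label (38.8% and 30.1% of the lists) and 1 and 2 between the myocytes (22.9% and 39.2%). With summits within 250 bp they were 2 and 2 (33.6% and 24.1%), and 1 and 2 (18.3% and 35.6%).

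With reads over the genome-wide background in place of folds, the median of wild-type differentiation was 0.78, against -0.38, with 9 higher and 0 lower regions. Regions 7, 8, 9 and 10 changed sign, to 0.72, 0.88, 0.46 and 0.18, and the read intervals of regions 9 and 10 included no difference. Regions 1, 3, 11, 12 and 13, whose fold intervals had included no difference, also changed sign, to 0.75, 0.91, 0.82, 0.67 and 0.43. MyoD-null differentiation had 2 higher regions. MyoD-null over wild-type myocytes had a median of -0.26, against 0.52, with 0 higher and 4 lower regions. There regions 1, 7, 8, 10 and 11 changed sign, to -0.087, -0.28, -0.18, -0.094 and -0.12, with read intervals that included no difference. The cause was not tested.

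With genotypes from the peak names, 0 myocyte peaks lacked overlap under the wild-type and 2 under the MyoD-null label, and 1 and 0 between the myocytes. Wild-type differentiation then had 0 lower regions, while MyoD-null differentiation had 1 higher and 4 lower. In wild-type differentiation regions 8 and 9 changed sign, to 0.058 and 0.013, with intervals that included no difference. Between the myocytes the exchange of names inverts every ratio by construction, so these values measure nothing new. There 0 were higher and 6 lower, the median was -0.52, and regions 1 and 7 to 11 were at -0.60, -0.67, -0.68, -0.99, -0.73 and -0.70. The median local background was 0.59 under the wild-type label and 1.55 under the MyoD-null label, against 0.61, and 0.94 between the myocytes, against -0.94. Means over the peaks of a region, which matter only for region 3 in wild-type myoblasts, changed no count or median beyond 1.5 times or counting error. The fold ratio of region 3 in wild-type differentiation changed sign, from -0.39 to 0.14. For the thresholds, windows and overlap rules the cause of each move was not tested.

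No paired analysis was possible because each group has a single list called on merged samples, and for the same reason no replicate was left out. Depth per sample is unknown. A region missing from a list was not detected at that depth.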
